A study of Mus musculus with 16 samples.

Results

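Bile acid synthesis and transport in the liver were described here through 10 genes chosen by name: 6 enzymes (Cyp7a1, Cyp8b1, Cyp27a1, Cyp7b1, Cyp2c70 and Baat), 2 carriers (Slc10a1 and Abcb11) and 2 nuclear receptors (Nr1h4 and Nr0b2). They are 10 of the 78317 genes in the deposited tables, and all 10 were among the 14781 genes abundant enough to be tested. RNA was measured in whole liver of wild-type C57BL/6J mice, an inbred laboratory strain, in 4 groups of 4 libraries. Females and males arrived at 6 weeks of age and were fed for 10 weeks on 1 of 2 diets. As listed for these samples, fat supplied 4.5% of the calories of the normal diet, LabDiet 5053, and 60% of those of the high fat diet, D12492 of Research Diets. The fat content was not checked against the makers' data. The diets came from different makers, so the groups can differ in more than dietary fat. The labels give 1 batch number to all 16 libraries and do not give the hour of tissue collection. They number the libraries of a group as replicates without tying a number to an animal, so the p-values below measure the spread between these libraries. The labels frame the study as a test of what a high fat diet does to the liver of each sex.

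Bile acids are made from cholesterol in hepatocytes, are conjugated, secreted into bile, and taken up again from portal blood. In the classical pathway Cyp7a1 performs the rate-limiting first hydroxylation, and Cyp8b1 adds the hydroxyl group that makes cholic acid and so sets the balance between the primary bile acids. In the alternative pathway the mitochondrial enzyme Cyp27a1 oxidises the sterol side chain, and Cyp7b1 then hydroxylates the resulting oxysterols. Cyp2c70 makes the muricholic acids typical of mice, and Baat joins bile acids to taurine or glycine. Slc10a1 (NTCP) takes conjugated bile acids up from the blood, and Abcb11 (BSEP) pumps them into the bile canaliculus. Nr1h4 (FXR) is the receptor that senses bile acids. One of its targets is Nr0b2 (SHP), a receptor without a DNA-binding domain that represses the synthesis enzymes.

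Total expected counts per library ran from 22228115 to 41420589 over the 16 libraries, and each of the 10 genes had between 127 and 32923 counts in every library. Levels below are CPM, the counts of a gene relative to its library's size after TMM scaling (trimmed mean of M values), unless TPM is named. TPM takes gene length into account and was used as deposited, without TMM scaling. Replicates 2 and 3 of the males on the high fat diet were closer to each other than any other pair of libraries within a group. Their chi-square statistic per gene was 4.07, against 20.8 for the next closest pair in any group, and sampling noise alone gives about 1. These libraries lay together outside the range of replicates 1 and 4 for 9 of the 10 genes, above them for 7 and below them for 2. They were kept as separate samples because the labels list them so, and the values of this group's comparisons are also given without them where a result turns on them. In the exons of GENCODE M21 only Abcb11 overlapped other genes (Gm13613 and Gm13614, on the opposite strand), and whether counting used the strand is not given in the sources used here.

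The liver label was checked against marker genes. All 8 hepatocyte markers (among them Alb, Ttr and Apob) were detected, and their summed level was 112300 to 125900 CPM in females on the normal diet and 86720 to 104200 CPM in females on the high fat diet. In males it was 92370 to 107400 CPM on the normal diet and 67690 to 83020 CPM on the high fat diet, so in both sexes the high fat diet libraries lay below the normal diet ones, and on each diet the females lay above the males. This sum is in large part Alb. Before TMM scaling Alb alone held 8.4% to 9.17% of counts in normal diet females and 7.39% to 8.75% in high fat diet females. In males it held 6.22% to 6.94% on the normal diet and 3.73% to 5.91% on the high fat diet. The 7 Kupffer cell and macrophage markers summed to 198.2 to 269.6 CPM in females on the normal diet, 310.9 to 425.4 CPM in females on the high fat diet, 173.2 to 260.6 CPM in males on the normal diet and 155 to 298.3 CPM in males on the high fat diet. Cholangiocyte and gallbladder markers, of which 7 of 9 passed the filter, stayed between 69.63 and 120.6 CPM with overlapping groups. Of 5 pancreatic acinar markers 1 passed the filter, and the 5 summed to at most 29.4 CPM. In bulk tissue, fewer cells of a type and less RNA per cell cannot be told apart, and the part of these marker differences in the results below was not tested.

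Per unit of gene length, Slc10a1 had the highest TPM of the 10 genes in 3 of the 4 groups. It had 587.6 ± 56.7 TPM (SD, n = 4) in females on the normal diet, followed by Cyp2c70 (441.3 ± 20.2 TPM), Cyp27a1 (292.1 ± 20.3 TPM) and Baat (202.9 ± 9.78 TPM), and none of these neighbours overlapped. Cyp8b1 (111.3 ± 34.9 TPM), Cyp7a1 (109 ± 33.8 TPM), Abcb11 (97.64 ± 14.3 TPM) and Nr1h4 (93.48 ± 6.99 TPM) came next, each overlapping its neighbour in that order. Cyp7b1 (22.42 ± 1.86 TPM) and Nr0b2 (16.05 ± 3.73 TPM) were the lowest of the 10. In males on the normal diet the order began with Cyp7b1 (473.5 ± 44.1 TPM), which overlapped Cyp2c70 (422.1 ± 89 TPM), which in turn overlapped Slc10a1 (392.6 ± 51.9 TPM). Cyp27a1 (277.1 ± 31.1 TPM), Cyp8b1 (237.4 ± 79 TPM) and Baat (214.9 ± 14.9 TPM) followed as overlapping neighbours. Abcb11 (98.66 ± 16 TPM), Cyp7a1 (91.44 ± 35.5 TPM) and Nr1h4 (79.56 ± 8.66 TPM) overlapped likewise, and Nr0b2 was last with 14.27 ± 6.11 TPM. The largest move in rank between the sexes on this diet was that of Cyp7b1.

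On the high fat diet the females again had Slc10a1 (622.3 ± 62.3 TPM) and Cyp2c70 (517.9 ± 58.8 TPM) at the top, now overlapping. Every neighbouring pair from Baat (238 ± 14.6 TPM) down through Cyp27a1 (205.8 ± 36.1 TPM), Abcb11 (150.2 ± 20 TPM), Cyp7a1 (120.7 ± 31.3 TPM), Nr1h4 (104.5 ± 7.01 TPM) and Cyp8b1 (100.1 ± 22.3 TPM) overlapped in those females. Nr0b2 (27.51 ± 11.4 TPM) and Cyp7b1 (19.03 ± 6.28 TPM) were lowest, with overlap. In males on the high fat diet Slc10a1 (438.7 ± 129 TPM), Cyp2c70 (413 ± 122 TPM), Cyp7b1 (296.1 ± 261 TPM), Baat (240.3 ± 16.2 TPM), Cyp27a1 (238.9 ± 53.8 TPM) and Cyp8b1 (235.1 ± 107 TPM) led, and each overlapped the next in that order. Slc10a1 and Cyp2c70 both lay wholly above Baat and Cyp27a1, so the order among the 6 held only in part. Below them came Nr1h4 (105.2 ± 8.9 TPM), Cyp7a1 (99.15 ± 35.6 TPM) and Abcb11 (87.95 ± 14.1 TPM), again overlapping, and Nr0b2 at 7.73 ± 1.15 TPM.

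**Figure D1:**
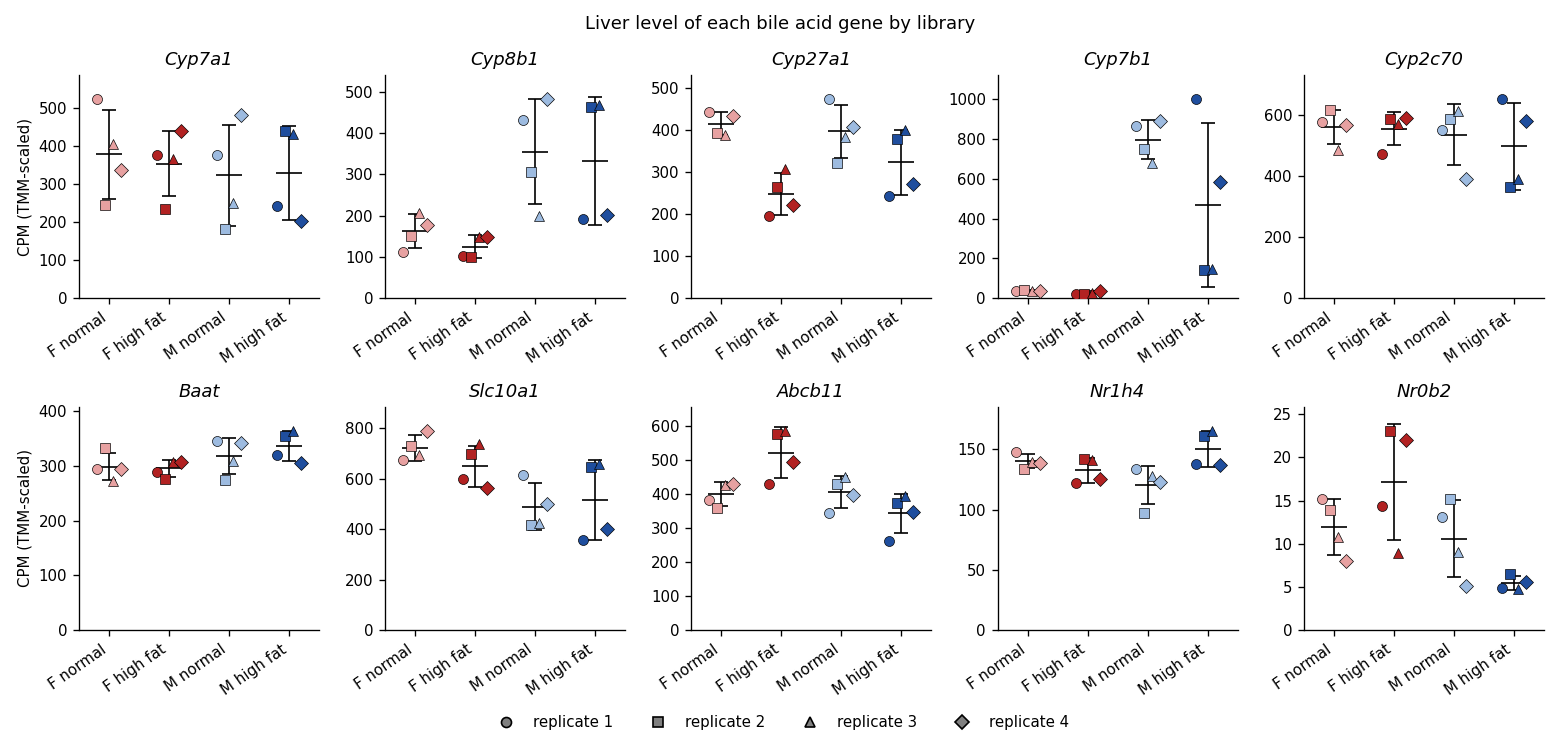
Level of each of the 10 bile acid genes in CPM (vertical axes, each starting at 0) in the 4 groups of 4 libraries. Symbols are single libraries by replicate number, and black bars are the group mean with 1 SD on either side. Cyp7b1 lies at 18.73 to 42.49 CPM in the 8 female libraries and at 140.1 CPM or more in all 8 male ones, and male high fat diet replicates 2 and 3 sit side by side in most panels.

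Cyp7a1, the rate-limiting enzyme of the classical pathway, did not pass the test in any comparison. In females on the normal diet the 4 libraries (replicates 1 to 4 in order, here and below) had 523, 244.5, 405.5 and 335.8 CPM, and on the high fat diet 374.8, 233.5, 365 and 437.4 CPM. In males the values were 376.5, 180.8, 250.1 and 480.4 CPM on the normal diet and 243.1, 437.5, 430.1 and 203.2 CPM on the high fat diet. All 4 groups overlapped, and each spanned a wide range. The coefficient of variation within a group ran from 24.3% in females on the high fat diet to 41.3% in males on the normal diet. The log2 difference between diets was -0.10 ± 0.329 (SE) in females and 0.03 ± 0.329 in males (edgeR quasi-likelihood test, adjusted p = 0.882 and 0.968). Between the sexes, as females minus males, it was 0.23 ± 0.329 on the normal diet and 0.10 ± 0.329 on the high fat diet (adjusted p = 0.68 and 0.848). Without male high fat diet replicates 2 and 3 the diet difference in males was -0.53 and the sex difference on the high fat diet 0.66 (adjusted p = 0.436 and 0.253). With errors of this size, differences in Cyp7a1 smaller than these errors, and also some that are larger, would not pass the test.

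Cyp8b1, the enzyme of cholic acid formation, was lower in females than in males. On the normal diet females had 111.2, 151.6, 207.1 and 178.5 CPM and males 430.8, 306.2, 199 and 483.2 CPM. Here 3 of the 4 female libraries lay below every male library, and male replicate 3 fell inside the female range. The sex difference, females minus males, was -1.13 ± 0.336 on the log2 scale, a level 2.19-fold lower in females (adjusted p = 0.0338). This call was lost in 7 of 25 alternative analyses, with adjusted p up to 0.115 when no filter on low counts was used, and 6 of the 7 left out a single library: female normal diet replicate 1, 2 or 4 or male normal diet replicate 1, 2 or 4, with adjusted p from 0.0531 to 0.105.

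On the high fat diet, Cyp8b1 had 103.3, 98.66, 148.2 and 148.7 CPM in females and 192.5, 464, 467.6 and 201.9 CPM in males. All 4 female libraries were below all 4 male ones. The difference was -1.41 ± 0.338 on the log2 scale, 2.66-fold lower in females (adjusted p = 0.00968). The 2 highest male values are those of the closely similar replicates 2 and 3. With these averaged into 1 library the difference was -1.18 (adjusted p = 0.0304), and with both left out it was -0.66 and no longer passed the test (adjusted p = 0.153). Between diets Cyp8b1 differed by -0.38 ± 0.332 in females (adjusted p = 0.498) and -0.10 ± 0.331 in males (adjusted p = 0.886). The male value was -0.85 without replicates 2 and 3 (adjusted p = 0.132).

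Cyp27a1, the mitochondrial sterol hydroxylase that starts the alternative pathway, fell on the high fat diet in females. Female libraries had 444.5, 393.9, 390.2 and 433.7 CPM on the normal diet and 196.9, 266.1, 309.1 and 221.1 CPM on the high fat diet. The groups did not overlap, and the highest high fat diet library stood below the lowest normal diet library. The log2 change was -0.74 ± 0.17 (adjusted p = 0.00946), and it passed the test in 25 of 25 alternative analyses, where it ranged from -0.86 to -0.52 with adjusted p from 0.000632 to 0.0372. The summed hepatocyte markers given above, in large part Alb, were also lower in these high fat diet females, again without overlap, and the Kupffer cell and macrophage markers were higher. The 4 intestinal epithelium markers, of which 1 passed the filter and 2 were at 0 in every library, summed to 74.99 to 89.67 CPM on the normal diet and 111.8 to 258.2 CPM on the high fat diet in females. The part of these differences in the fall of Cyp27a1 was not tested.

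In males, Cyp27a1 had 475.5, 322.5, 384.1 and 408.9 CPM on the normal diet and 244.3, 378.8, 400.8 and 272.8 CPM on the high fat diet. Replicates 1 and 4 on the high fat diet were below every normal diet library, while replicates 2 and 3 were inside the normal diet range. The change was -0.30 ± 0.169 (adjusted p = 0.272). Without replicates 2 and 3 it was -0.62 and passed the test (adjusted p = 0.0403). The diet effects of Cyp27a1 in females and males differed by -0.45 ± 0.239 on the log2 scale (adjusted p = 0.451), so a difference between the sexes was not shown.

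Cyp7b1, the oxysterol hydroxylase of the alternative pathway, had the largest sex difference of the 10 genes on both diets. Females on the normal diet had 36.37, 42.49, 36.52 and 34.4 CPM and males 863.7, 749.5, 679 and 891.2 CPM. Females were thus 21.3-fold lower, a log2 difference of -4.41 ± 0.572 (adjusted p = 0.000263). On the high fat diet females had 18.73, 22.56, 28.05 and 37.47 CPM and males 1001, 140.1, 146.5 and 580.8 CPM. Every female library remained below every male library, and the difference was -4.13 ± 0.566, or 17.5-fold (adjusted p = 0.000371). It was -4.42 with male replicates 2 and 3 averaged and -4.89 with both left out.

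The males on the high fat diet were spread more widely for Cyp7b1 than any other group for any of the 10 genes, with a coefficient of variation of 88.1%. Replicate 1 exceeded all normal diet males, replicate 4 lay below all of them, and replicates 2 and 3 were lower still, although above every female. The diet difference in males was -0.77 ± 0.499 (adjusted p = 0.348). It was -1.48 with replicate 1 left out, where it passed the test (adjusted p = 0.0397), and -0.01 with replicates 2 and 3 left out (adjusted p = 0.987), so single libraries set this value. In females the diet difference was -0.49 ± 0.504 (adjusted p = 0.574), with 3 of 4 high fat diet libraries below all normal diet ones.

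The ratio of Cyp7b1 to Cyp7a1 in TPM sets the alternative against the classical hydroxylase within a library. It was 0.145 to 0.362 in females on the normal diet, 0.104 to 0.2 in females on the high fat diet and 3.87 to 8.63 in males on the normal diet. Males on the high fat diet had 8.55, 0.665, 0.709 and 5.92, so replicates 2 and 3 had more Cyp7a1 than Cyp7b1, as all females did, and the other two the reverse. The ratio of Cyp8b1 to Cyp7a1 was 0.501 to 1.46 and 0.649 to 0.991 in females on the normal and the high fat diet, against 1.87 to 3.99 and 1.86 to 2.56 in the corresponding males. For this ratio male replicates 2 and 3 did not stand apart from the males, and the sexes did not overlap on either diet. These ratios were formed after the values were seen and were not tested.

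**Figure D2:**
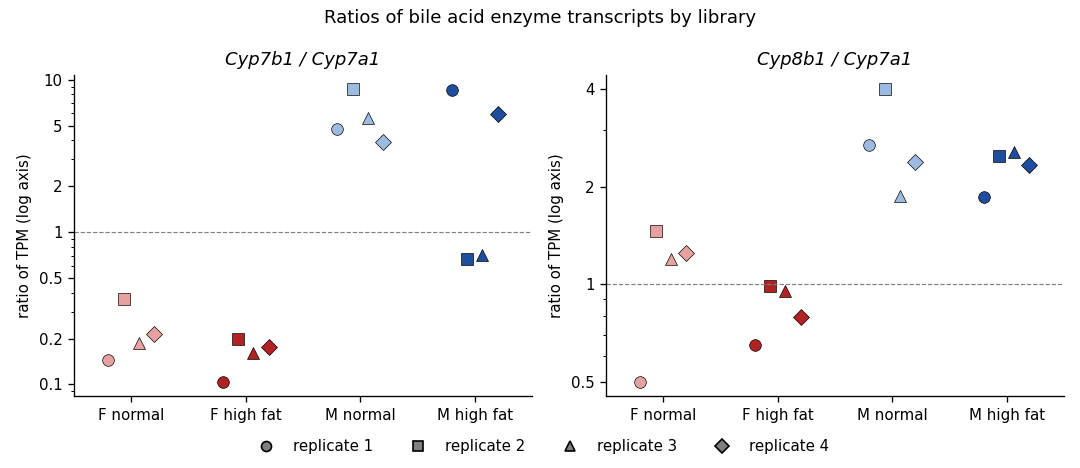
Ratio of Cyp7b1 to Cyp7a1 (left) and of Cyp8b1 to Cyp7a1 (right), both from TPM on log axes, for each of the 16 libraries; symbols show the replicate number and the dashed line marks equal levels. On the left, male high fat diet replicates 2 and 3 (0.665 and 0.709) lie between the females and the other males, while on the right all 8 male libraries are at 1.86 or more and no female library exceeds 1.46.

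Cyp2c70, the enzyme of muricholic acid formation, and Baat, the conjugating enzyme, passed the test in no comparison. Cyp2c70 group means were 560.2 ± 55.6 CPM (SD, n = 4) in females on the normal diet, 553.5 ± 54.5 CPM in females on the high fat diet, 534.7 ± 100 CPM in males on the normal diet and 496.3 ± 142 CPM in males on the high fat diet. Baat had 298 ± 24.5, 294.9 ± 15, 317.3 ± 32.8 and 335.7 ± 28 CPM in the same groups. For Baat the diet difference was -0.02 ± 0.105 in females and 0.08 ± 0.105 in males, the smallest errors of the 10 genes beside those of Nr1h4. Male high fat diet replicates 2 and 3 had the 2 lowest Cyp2c70 values in that group (363.3 and 390.2 CPM, against 651.6 and 580.3 CPM).

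The 3 proximal promoters shown are those with a match to at least 1 of the 2 short sequences described next. Of these genes, Cyp8b1 and Nr0b2 differed between the sexes on the high fat diet in opposite directions. Cyp2c70, which did not differ, carries letters in common with Cyp8b1. Liver receptor homolog 1 (Nr5a2) binds an extended hormone response element of the form CAAGGNCA, and a hepatocyte nuclear factor 4 type site can be written CAAAGTCCA. Both were searched on both strands from 250 bases before to 50 after each gene's start in the RefSeq promoter table (build GRCm38.p6), which held 7 of the 10 genes. CAAGGNCA was found in Nr0b2 and Cyp8b1 and in 6.71% of all 32851 promoters, and CAAAGTCCA in Cyp8b1 and Cyp2c70 and in 0.475% of all promoters. Neither was found in Abcb11, which also differed between the sexes on the high fat diet. Cyp7b1, which differed as well, had no entry to search. In Cyp8b1 the 2 matches overlap. The sequences run 5′ to 3′ on the gene's strand and end at the base before the start, with matches in capitals. They lie at chr4:133553156-133553375 (plus strand) for Nr0b2, chr9:121916306-121916415 (minus strand) for Cyp8b1 and chr19:40187287-40187396 (minus strand) for Cyp2c70.
Nr0b2: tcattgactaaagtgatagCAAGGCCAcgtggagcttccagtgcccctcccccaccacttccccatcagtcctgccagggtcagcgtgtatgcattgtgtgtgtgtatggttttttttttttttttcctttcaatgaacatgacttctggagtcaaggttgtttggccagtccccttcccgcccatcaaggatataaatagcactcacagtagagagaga
Cyp8b1: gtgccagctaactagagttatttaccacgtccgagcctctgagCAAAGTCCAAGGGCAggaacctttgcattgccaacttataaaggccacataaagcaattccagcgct
Cyp2c70: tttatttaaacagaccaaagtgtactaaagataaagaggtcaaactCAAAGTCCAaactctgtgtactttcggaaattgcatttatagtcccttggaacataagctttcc
The first base of the match was 201 bases before the start in Nr0b2, 67 and 60 bases before it in Cyp8b1, and 64 bases before it in Cyp2c70. A match of letters is a description and does not show that a factor binds there. The transcript of Nr5a2 had 71.08 ± 4.74, 79.37 ± 13, 69.09 ± 4.36 and 69.1 ± 6.46 CPM (SD, n = 4) in females on the normal and high fat diets and males on the normal and high fat diets, and was called in none of the 5 comparisons. That of Hnf4a was lower in females than in males on the high fat diet, at 368.7 against 507.8 CPM (-0.46 ± 0.115, adjusted p = 0.00942). This call was lost with limma on log2(TPM + 1) (adjusted p = 0.0858). Its diet differences are given below, and a relation of either factor to these genes was not tested.

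Slc10a1, the uptake carrier, was higher in females than in males on the normal diet. Females had 672.3, 730.2, 693.6 and 789.7 CPM and males 616.1, 416.7, 424.6 and 497.6 CPM, with no overlap. The difference was 0.56 ± 0.183 on the log2 scale (adjusted p = 0.0453). It lay close to the threshold and was lost in 9 of 25 alternative analyses, among them the fit with a replicate block (adjusted p = 0.059). The other 8 each left out 1 library, with adjusted p from 0.0534 without female high fat diet replicate 2 to 0.136 without male normal diet replicate 3; the rest were the fits without any 1 of the 4 normal diet females or without male normal diet replicate 2 or 4. Summed markers of other cell types were also higher in these females than in these males without overlap: 372.2 to 397.6 against 257.6 to 319.8 CPM for 7 stellate cell markers, 138.9 to 162.4 against 120.8 to 137 CPM for 6 sinusoidal endothelium markers, and 2.432 to 3.985 against 0.5414 to 2.182 CPM for 6 T and B cell markers. So was the hepatocyte sum given above, which is in large part Alb, at 112300 to 125900 against 92370 to 107400 CPM. The part of these marker sums in the result was not tested.

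On the high fat diet Slc10a1 had 599.4, 698.1, 735.8 and 560.8 CPM in females and 358.3, 646, 658.8 and 400.7 CPM in males. Male replicates 1 and 4 were below every female, and replicates 2 and 3 were inside the female range. The difference was 0.33 ± 0.183 (adjusted p = 0.208), and without replicates 2 and 3 it was 0.77 (adjusted p = 0.00427). In TPM with limma it passed the test as well (0.55, adjusted p = 0.0274). That fit has no TMM scaling, and in log2(TPM + 1) its median over all genes was 0.102 for this comparison. Between diets Slc10a1 differed by -0.15 ± 0.183 in females and 0.08 ± 0.183 in males, neither past the threshold (adjusted p = 0.628 and 0.828). The male value was -0.37 without replicates 2 and 3 (adjusted p = 0.194).

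Abcb11, the canalicular bile salt export pump, was higher in females than in males on the high fat diet. Females had 428.4, 577.2, 586.6 and 495.6 CPM and males 263.2, 372.9, 394.4 and 346.3 CPM, with no overlap. The difference was 0.60 ± 0.139 on the log2 scale, or 1.52-fold (adjusted p = 0.00617), and it passed the test in 25 of 25 alternative analyses. With male replicates 2 and 3 left out it was 0.78 (adjusted p = 0.00389). On this diet the summed markers of hepatocytes (in large part Alb) and of Kupffer cells and macrophages were also higher in females without overlap. So were those of T and B cells (3.59 to 7.377 against 1.486 to 3.264 CPM), and the acinar markers were lower (7.703 to 11.03 against 12.26 to 29.4 CPM). Their part in the sex differences on the high fat diet was not tested. On the normal diet the sexes overlapped, at 383.9, 359.7, 427.3 and 429.7 CPM in females and 344.5, 430.7, 451.6 and 397.2 CPM in males.

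Between diets, Abcb11 in females differed by 0.38 ± 0.139 (adjusted p = 0.08), with 3 of 4 high fat diet libraries above all normal diet ones and replicate 1 inside their range. This value was near the threshold and passed it in 6 of the alternatives: DESeq2 (adjusted p = 0.0419), the replicate block (0.37, adjusted p = 0.0327), limma on log2(TPM + 1) (0.62, adjusted p = 0.0107) and on log2(TPM + 0.1) (adjusted p = 0.0112), and the fits without female high fat diet replicate 1 (adjusted p = 0.0429) or male high fat diet replicate 1 (adjusted p = 0.0375). The limma fits have no TMM scaling, and their medians over all genes were 0.149 and 0.222 for this comparison. In males the Abcb11 diet difference was -0.24 ± 0.139 (adjusted p = 0.28), and -0.42 without replicates 2 and 3 (adjusted p = 0.133). The diet effects of the sexes differed by 0.62 ± 0.196 (adjusted p = 0.172), which did not pass the test.

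Nr1h4, the bile acid receptor, was called by edgeR in no comparison. Its group means were 140.2 ± 5.77 CPM in females on the normal diet, 132.7 ± 10.4 CPM in females on the high fat diet, 120.4 ± 15.8 CPM in males on the normal diet and 150.5 ± 14.9 CPM in males on the high fat diet (SD, n = 4). In males the libraries had 133.5, 97.6, 127.8 and 122.8 CPM on the normal diet and 138.3, 160.8, 165.6 and 137.2 CPM on the high fat diet. All 4 high fat diet males were above all 4 normal diet males, yet the difference of 0.32 ± 0.108 did not pass the test (adjusted p = 0.0608). It passed with DESeq2 (adjusted p = 0.0356), with limma on log2(TPM + 1) (0.40, adjusted p = 0.0163) and on log2(TPM + 0.1) (adjusted p = 0.0161), and without female high fat diet replicate 1 (adjusted p = 0.0476). The medians over all genes in these limma fits were 0.0505 and 0.0785. Without male high fat diet replicates 2 and 3 the Nr1h4 difference was 0.19, with an adjusted p of 0.393. In females the diet difference was -0.08 ± 0.107 (adjusted p = 0.678). On the normal diet all 4 females (134 to 147.9 CPM) were above all 4 males, by 0.22 ± 0.108 (edgeR, adjusted p = 0.175). On the high fat diet the sexes overlapped (-0.18 ± 0.108, edgeR, adjusted p = 0.241).

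Nr0b2, the repressor encoded by an Nr1h4 target gene, was the least abundant of the 10 genes by count and was higher in females than in males on the high fat diet. Females had 14.41, 23.09, 8.9 and 22.05 CPM and males 4.905, 6.518, 4.776 and 5.623 CPM, so that the lowest female exceeded the highest male. The difference was 1.65 ± 0.34 on the log2 scale, or 3.13-fold (adjusted p = 0.00396). It passed the test in 25 of 25 alternatives. The highest adjusted p among them, 0.0267, came with male replicates 2 and 3 both left out (log2 difference 1.70). For this gene replicates 2 and 3 did not stand apart.

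On the normal diet Nr0b2 had 15.16, 13.92, 10.76 and 7.979 CPM in females and 13.05, 15.15, 9.074 and 5.089 CPM in males, with overlapping groups. The diet difference was 0.52 ± 0.325 in females (adjusted p = 0.324) and -0.95 ± 0.339 in males (adjusted p = 0.0824). The male value passed the test with DESeq2 (adjusted p = 0.0189) and without male normal diet replicate 4 (-1.20, adjusted p = 0.0237), and was -1.01 without male high fat diet replicates 2 and 3 (adjusted p = 0.223). The test of whether diet acted differently in the sexes gave 1.48 ± 0.47 (adjusted p = 0.191; 0.0348 with DESeq2). The sex difference of Nr0b2 on the high fat diet therefore passed the test, while its dependence on diet did not.

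Several clock genes moved between the same groups. Nr1d1 (REV-ERB alpha), a rhythmic repressor, had 13.32 ± 4.38 and 46.28 ± 8.93 CPM in females on the normal and high fat diets and 23.61 ± 5.57 and 6.284 ± 0.62 CPM in males. Dbp, a rhythmic activator, had 46.22 ± 4.54 and 75.24 ± 22.7 CPM in females and 51.86 ± 14.1 and 17.46 ± 0.919 CPM in males. Both were higher on the high fat diet in females and lower in males, with a log2 difference between these effects of 3.71 ± 0.304 for Nr1d1 and 2.27 ± 0.276 for Dbp (edgeR, adjusted p = 5.54e-06 and 0.000837). Of 15 clock genes tested, 2 rose (Nr1d1 and Dbp) and 5 fell with the diet in females (background 11.5%), and 1 rose and 10 fell in males (background 11.4%). The interaction was called for 3 of the 15 (background 0.677%). The third, Cry1, had the opposite sign to Nr1d1 and Dbp (-1.70 ± 0.299, adjusted p = 0.0112). Cyp7a1 and Nr0b2 are known as rhythmic genes in liver. The hour of collection is not given in the sources used here, and the part of these clock differences in the levels of the bile acid genes was not tested.

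**Figure D3:**
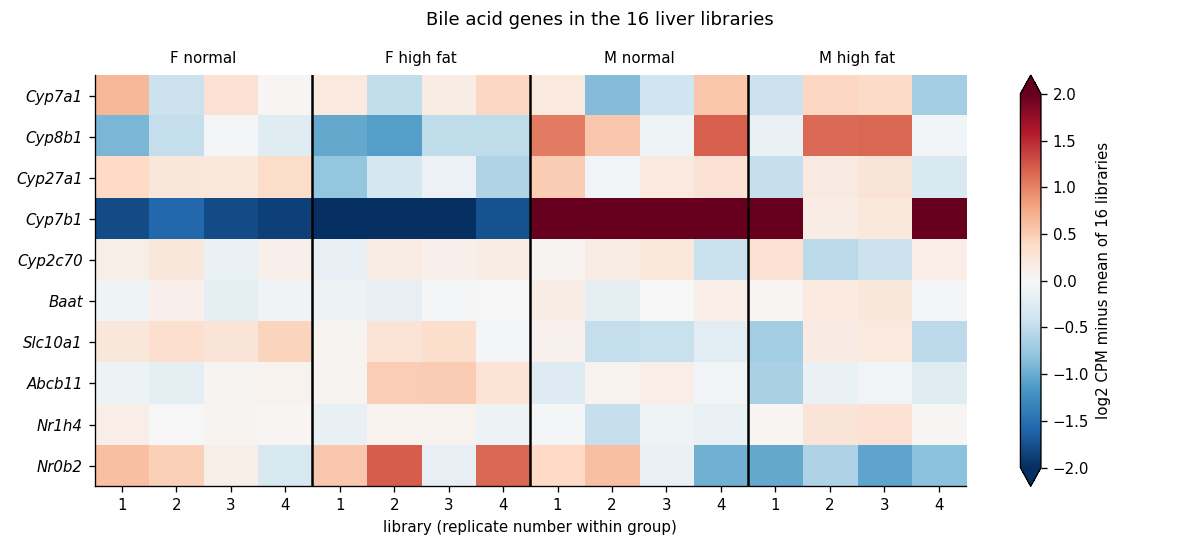
Deviation of each of the 10 genes (rows) from its mean over the 16 libraries, in log2 CPM, with libraries in columns ordered by group and replicate. The colour scale ends at -2 and 2, which Cyp7b1 exceeds in both directions. The sexes part for Cyp7b1 on both diets, and male high fat diet replicates 2 and 3 share a column pattern that differs from replicates 1 and 4 in 9 of the 10 rows.

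Counted over all 10 genes, 1 of 10 was called for diet in females (Cyp27a1, lower), where the background over all 14781 genes was 11.5%. In males 0 of 10 were called by edgeR against a background of 11.4%; 2 of the 10 had an unadjusted p below 0.05, DESeq2 called 2 and limma on TPM called 1. For the diet by sex interaction 0 of 10 were called by edgeR against 0.677%; 3 had an unadjusted p below 0.05, DESeq2 called 1 and limma none. For sex on the normal diet 3 of 10 were called (Cyp7b1 and Cyp8b1 lower and Slc10a1 higher in females) against 15.7%. For sex on the high fat diet 4 of 10 were called (Cyp7b1 and Cyp8b1 lower, Abcb11 and Nr0b2 higher in females) against 20.4%. By edgeR the diet counts were near or below the share of all genes called. The sex counts were above it, and the excess was not tested. On the normal diet the sex count was 1 when female replicate 1, 2 or 4 or male replicate 2 or 4 was left out.

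The median log2 difference over the 10 genes was -0.09 for diet in females, -0.10 for diet in males, 0.07 for sex on the normal diet and -0.04 for sex on the high fat diet. The medians over all tested genes were 0.0019, 0.011, -0.002 and -0.01. In TPM + 1 the median over all genes shifted to 0.149 for diet in females and 0.102 for sex on the high fat diet, so small differences in these comparisons depend on the scale. In females, Cyp7a1, Cyp2c70, Baat, Slc10a1 and Nr1h4, none of them called, had opposite signs on the CPM and TPM scales. The fall of Cyp27a1 in females kept its direction on both scales.

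**Figure D4:**
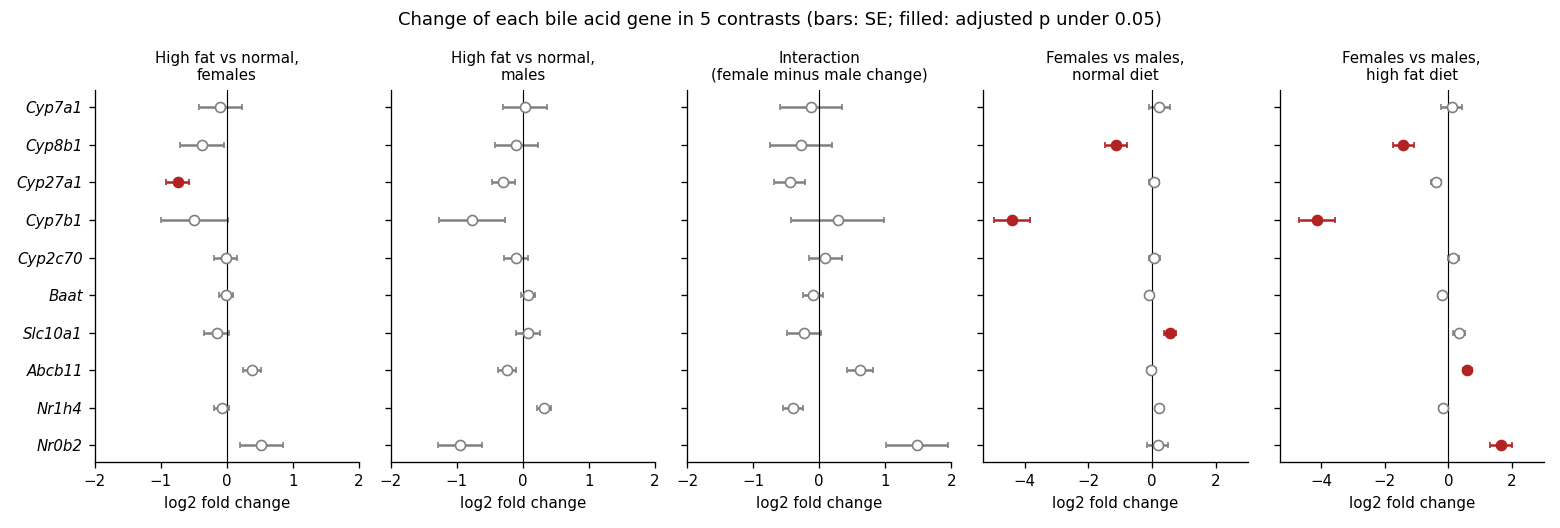
Log2 difference of each of the 10 genes (points) with its standard error (bars) in the 5 comparisons, by edgeR, with a wider axis for the sex panels; filled points have an adjusted p under 0.05. For diet only Cyp27a1 in females (-0.74) is filled, while for sex Cyp7b1 (-4.41 and -4.13) lies far from the other genes and Cyp8b1 is filled on both diets.

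Of 55 other genes of the pathway, grouped by role, 52 could be tested. Ch25h, an oxysterol enzyme, Gpbar1, a membrane bile acid receptor, and Fgf15, the intestinal hormone that represses Cyp7a1, were too low. In females, 15 of the 52 were called for diet, 5 higher and 10 lower (background 11.5%). In TPM + 1 with limma the split was 8 higher and 6 lower. Over all genes that limma fit called 2644 higher and 282 lower, and edgeR 848 and 852. By edgeR the other synthesis enzymes had 2 higher and 2 lower of 15, and the other carriers 0 and 4 of 17. The receptors and regulators had 3 and 2 of 14, and the detoxification genes 0 and 2 of 6. Hsd3b7, which isomerises the sterol ring after the first hydroxylation, rose from 175.1 to 321 CPM (log2 change 0.87 ± 0.133, adjusted p = 0.000489). Among those that fell were the pregnane X receptor Nr1i2, from 99.51 to 57.46 CPM (-0.79 ± 0.101, adjusted p = 0.000109), and Sult2a8, a bile acid sulfotransferase, from 1665 to 762.6 CPM (-1.13 ± 0.208, adjusted p = 0.00237). Abcg2, an efflux pump, fell from 69.32 to 37.76 CPM, and Nr2f2, an orphan nuclear receptor, rose from 23.91 to 33.74 CPM (adjusted p = 0.00561 and 0.00572). Hnf4a, a master regulator of hepatocyte genes, fell from 557.3 to 368.7 CPM (-0.60 ± 0.115, adjusted p = 0.00331), a call that limma on log2(TPM + 1) did not make (-0.35, adjusted p = 0.0501).

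In males 7 of the 52 were called for diet, 2 higher and 5 lower (background 11.4%), and 4 by limma on log2(TPM + 1), with 2 in each direction. That limma fit called 899 higher and 443 lower over all genes, and edgeR 891 and 793. Cyp3a11, which hydroxylates and so detoxifies bile acids, fell from 10340 to 815.5 CPM (-3.66 ± 0.41, adjusted p = 8.04e-05; -4.96 without male high fat diet replicates 2 and 3). Hsd3b7 rose in males too, from 172.8 to 277.3 CPM (0.68 ± 0.133, adjusted p = 0.00313). Ephx1, the microsomal epoxide hydrolase, fell from 596.4 to 295 CPM (-1.02 ± 0.201, adjusted p = 0.00348), and the basolateral pump Abcc4 from 3.744 to 1.941 CPM (-0.96 ± 0.212, adjusted p = 0.00733). Hnf4a fell from 701.6 to 507.8 CPM and Nr1i2 from 74.39 to 56.12 CPM (adjusted p = 0.0139 and 0.0143). The calls of Hnf4a, Nr1i2 and Abcc4 were lost with limma on log2(TPM + 1) (adjusted p = 0.0653, 0.0583 and 0.106). Leaving out male replicates 2 and 3 ended those of Hnf4a (adjusted p = 0.083) and Abcc4 (adjusted p = 0.0623), and leaving out male normal diet replicate 3 ended that of Hnf4a (adjusted p = 0.0582). In the interaction edgeR called 0 of the 52, with 11 at an unadjusted p below 0.05, while DESeq2 called 6 and limma on log2(TPM + 1) called 1.

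Between the sexes 20 of the 52 were called on the normal diet, 12 higher and 8 lower in females (background 15.7%). The count was 12 without female normal diet replicate 1 and 13 without female replicate 2 or male replicate 4. Sult2a1, a hydroxysteroid and bile acid sulfotransferase, was at 503 CPM in females against 0.9628 CPM in males (8.93 ± 0.661, adjusted p = 1.54e-06). Scp2, which encodes a peroxisomal thiolase of side-chain shortening, was lower in females, at 2791 against 5612 CPM (-1.01 ± 0.112, adjusted p = 1.06e-05). The gap was smaller in TPM, at 1982 against 2720 TPM. Over the alternatives the difference ran from -1.04 to -0.46, and limma on log2(TPM + 1) kept the call (adjusted p = 0.00548). Cyp39a1, another oxysterol hydroxylase, was higher in females at 126.1 against 44.02 CPM (1.52 ± 0.265, adjusted p = 0.00159), in contrast to Cyp7b1. Of the efflux pumps, Abcb1a (24.16 against 4.265 CPM, 2.49 ± 0.398) and Abcc4 (1.15 ± 0.2) were higher and Abcg2 (-1.30 ± 0.184) lower in females (adjusted p = 0.00107, 0.000953 and 0.00015).

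On the high fat diet 13 of the 52 were called, 7 higher and 6 lower in females (background 20.4%), against 12 higher and 3 lower with limma on log2(TPM + 1). Over all genes that limma fit called 2957 higher and 753 lower in females, and edgeR 1306 and 1716. Only 7 of the 52 were called by edgeR when the fit held the compared groups alone, and 8 with no filter on low counts or without female high fat diet replicate 4. Sult2a1 (9.70 ± 0.692, adjusted p = 8.85e-07) and Abcc4 (1.35 ± 0.211, adjusted p = 0.000337) were again higher in females, and Scp2 (-0.93 ± 0.112, adjusted p = 2.29e-05) lower. The Scp2 call was lost with limma on log2(TPM + 1), where its difference was -0.25 (adjusted p = 0.0608). Abcg2 was at 37.76 CPM in females against 177.4 CPM in males (-2.23 ± 0.189, adjusted p = 4.42e-07). The uptake carrier Slco1a1 had 18.72 and 525.1 CPM (-4.81 ± 0.669, adjusted p = 0.000435), and Sult2a8 had 762.6 and 1524 CPM (adjusted p = 0.00309). Without male replicates 2 and 3 these 6 genes were still called, with differences of -2.29 for Abcg2, 10.56 for Sult2a1, -0.93 for Scp2, 1.29 for Abcc4, -4.97 for Slco1a1 and -0.79 for Sult2a8 (adjusted p at most 0.0346). Cyp3a11, the Sult2a genes and Slco1a1 have close relatives in the genome, and RSEM splits reads that fit more than 1 gene, so the values of these single genes are uncertain.

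Across the 16 libraries, the genes whose log2 CPM followed each of 4 bile acid genes most closely were listed by Pearson's r among 11884 genes. Cyp7b1 was followed by Cyp4a12b (0.985), Nudt7 (0.981) and Mup14 (0.981), of which Cyp4a12b and Mup14 are members of families of near-identical copies. Cyp8b1 was followed by Cat, which encodes catalase (0.897), Vps41 (0.862) and Gm5831 (0.86). For Nr0b2, Ripply3 (0.924) and Glb1 (0.861) were among the closest. The closest to Cyp7a1 were Zswim7 (0.713), Cyp46a1 (0.692) and Gm34934 (0.69), lower than for the other three. These values describe libraries that fall into 4 groups and carry no test.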

How the data were processed

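Poly(A) RNA of mouse liver was sequenced in 16 libraries, per the labels. The authors deposited RSEM expected counts and TPM per gene; STAR, RSEM and GRCm39 are named in the submitters' processing notes, while versions, annotation and strand setting are not given in the sources used here. Symbols were matched to 51487 of 78317 identifiers. Expected counts were rounded, filtered with filterByExpr on the 4 groups and fitted with the edgeR 4.0.16 quasi-likelihood test (robust, trimmed mean of M values, 1 mean per group, R 4.3.3). P-values were two-sided, adjusted by Benjamini-Hochberg over 14781 genes and called under 0.05. Standard errors are the log2 difference over the square root of F. The edgeR and DESeq2 fits, and limma on log2 CPM, were tested on simulated data. The limma fits on TPM were not. Alternatives were other size factors, DESeq2 1.42.0, no filter, only the compared groups, a replicate block, limma 3.58.1 on log2(TPM + 1) and log2(TPM + 0.1), each library left out, and male high fat diet replicates 2 and 3 averaged; leaving out both was chosen after seeing the data. The 10 genes and all lists were chosen with earlier results of these data known. Named besides them are up to 6 called pathway genes with the smallest p in each comparison, Nr1d1 and Dbp, and the 3 genes most like 4 of the members, of which 1 is not reported here. Nr5a2, the sex difference of Hnf4a, the value of Cry1 and the ratios were added after values were seen. Promoter sequences are RefSeq's (GRCm38.p6), whose build is not that of the counts.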

Additional observations from a re-analysis of the deposited data

Results flagged for a closer look

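The Cyp2c70 level of female high fat diet replicate 1 was 472.7 CPM, apart from the other 3 libraries of its group at 568.9 to 587.2 CPM. Its gap to the nearest was 0.84 of the group's range, above Dixon's 95% critical value for 4 libraries. Of 40 groups examined (10 genes in 4 groups) this was the 1 beyond that value, and chance flags about 1 in 20 groups.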

How the results depend on the processing

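Each of the 50 member values (10 genes in 5 comparisons) was recomputed in up to 25 alternative analyses, 1240 in all. Direction and side of the threshold were kept in 1134, 17 lost a call, 18 gained one, and 71, of 22 values, turned the sign, none of them called in either analysis. The number of the 10 genes called for diet in females was 1, and 2 under DESeq2, both limma fits on TPM and the replicate block; leaving out single libraries gave 1 to 2. For diet in males it was 0, and 2 under DESeq2, 1 under both limma fits and 1 without male high fat diet replicates 2 and 3; single libraries left out gave 0 to 1. For the interaction it was 0, and 1 under DESeq2. For sex on the normal diet it was 3, with 1 to 3 when single libraries were left out. The count of 4 for sex on the high fat diet did not move by more than 1.5 times.

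With the replicate block the member count for diet in females was 2 and the Slc10a1 sex difference on the normal diet lost its call. Same-numbered libraries correlated at -0.159 to 0.18 over 24 pairs, with 4 over 0.1. A library correlated best with its own number in 20 of 48 comparisons, where 12 would be met if the numbers carried nothing. Whether the numbers pair the samples was not settled by these values, and the main fit treated the libraries as unpaired.

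The sign turned in these cases. With limma on log2(TPM + 1) the diet difference in females was 0.17 for Cyp7a1, 0.22 for Cyp2c70, 0.23 for Baat, 0.082 for Slc10a1 and 0.16 for Nr1h4, and the interaction 0.040 for Cyp7a1 and 0.068 for Baat. With log2(TPM + 0.1) these were 0.17, 0.22, 0.23, 0.082, 0.16, 0.040 and 0.068. When replicates 2 and 3 of the males on the high fat diet were averaged, the diet difference in males was -0.14 for Cyp7a1, 0.0026 for Cyp2c70 and -0.059 for Slc10a1, and the interaction 0.048 for Cyp7a1, -0.014 for Cyp7b1 and -0.012 for Cyp2c70. With both left out, the diet difference in males was -0.53 for Cyp7a1, 0.20 for Cyp2c70, -0.026 for Baat and -0.37 for Slc10a1, the interaction 0.43 for Cyp7a1, 0.47 for Cyp8b1, -0.48 for Cyp7b1, -0.22 for Cyp2c70, 0.0081 for Baat and 0.21 for Slc10a1, and the sex difference on the high fat diet -0.15 for Cyp2c70. The cause was not tested.

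Leaving out 1 library at a time spanned 0 for diet in females in Cyp7a1 (-0.24 to 0.12), Cyp2c70 (-0.076 to 0.053) and Baat (-0.049 to 0.056). It did so for diet in males in Cyp7a1 (-0.17 to 0.28), Cyp8b1 (-0.31 to 0.085), Cyp2c70 (-0.28 to 0.015) and Slc10a1 (-0.064 to 0.21), and for the interaction in Cyp7a1 (-0.37 to 0.095), Cyp7b1 (-0.022 to 1.01) and Cyp2c70 (-0.033 to 0.28). For sex on the normal diet the ranges were -0.020 to 0.16 in Cyp27a1, -0.053 to 0.14 in Cyp2c70, -0.087 to 0.034 in Abcb11 and -0.06 to 0.41 in Nr0b2, and for sex on the high fat diet -0.071 to 0.28 in Cyp7a1.

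Over all genes, limma on TPM called 2926 and 2763 for diet in females against 1700, DESeq2 called 341 in the interaction against 100 and averaging gave 58, and the high fat diet groups fitted alone gave 1958 against 3022 for sex. Single libraries left out lowered the diet count in females to 947 and in males (1684) to 1113, gave 51 to 176 in the interaction, and lowered the sex counts to 1325 of 2322 and 1974 of 3022. Fitting only the compared groups was not run for the interaction, which needs all 4. Groups of 4 limit what can be seen in variable genes such as Cyp7a1, and the closeness of male high fat diet replicates 2 and 3 limits every male diet value.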
